A study of Mus musculus with 16 samples.

Results

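The 10 genes described here encode ubiquitin ligases, transcription factors and autophagy proteins by which heart muscle removes its own components. They are Fbxo32, Trim63 and Trim54 (muscle ubiquitin ligases), Foxo1 and Foxo3 (transcription factors of the FoxO family), Map1lc3a, Map1lc3b and Gabarapl1 (proteins of the ATG8 family), Sqstm1 (an autophagy receptor) and Bnip3 (a mitophagy receptor). They were taken by symbol from a count table of 55487 genes, and all 10 were among the 18275 genes that passed the filter on low counts. After pressure overload Map1lc3b was called lower in Ctrl hearts and in hearts labelled Cardinal-KO, by 0.19 and 0.21 on the log2 scale. The Ctrl call was lost with a term for animal numbers starting with 25 (adjusted p = 0.111). The KO call was lost with a term for numbers starting with 33 (adjusted p = 0.0530). In Cardinal-KO hearts Foxo3 (-0.57) and Map1lc3a (-0.25) were also called lower and Bnip3 (0.25) higher. In Ctrl hearts these genes moved the same way without being called, by -0.34, -0.14 and 0.22. Their changes were not shown to differ between genotypes. The Bnip3 call held in 10 of 16 fits with 1 library omitted. The ligases Fbxo32, Trim63 and Trim54, and Foxo1, Sqstm1 and Gabarapl1, passed the test in neither genotype. In total 1 of the 10 genes was called in Ctrl TAC against Ctrl sham, where 20.0% of all genes tested were called, and 4 of the 10 in KO TAC against KO sham, where 34.3% were called. None of the 10 was called between genotypes after TAC, where 2.68% of all genes were called, or between genotypes after sham surgery, where 0% were called. None was called in the genotype by surgery interaction, where 0.0109% of all genes were called. Cardinal itself, the deleted gene, was among the genes tested and was also not called between genotypes after sham surgery. A call is an adjusted p under 0.05 in edgeR's quasi-likelihood test with Benjamini-Hochberg adjustment over all 18275 genes.

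The series asked how loss of the long noncoding RNA Cardinal, annotated in mouse as Gm12295, changes the transcriptome of the stressed heart. Poly(A) RNA from the apex of the heart was sequenced from 16 male mice, 4 in each of 4 groups. The Ctrl sham and Ctrl TAC mice were wild type at Cardinal (genotype WT), and the KO sham and KO TAC mice carried a deletion made with CRISPR/Cas9 (genotype CARDINAL-KO), not restricted to heart muscle. Transverse aortic constriction (TAC) narrows the aorta so that the left ventricle pumps against a higher pressure. Sham mice went through the surgery without the ligation. All hearts were collected 4 weeks after surgery, and the labels give neither the strain nor the ages of the mice.

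A muscle fibre breaks down its proteins by a pair of routes, both of which are regulated at the level of transcription. In the first, ubiquitin ligases tag proteins for the proteasome, and the ligases encoded by Fbxo32 and Trim63 are known for their induction in wasting skeletal muscle. In the second, autophagy, a membrane coated with ATG8 proteins (the LC3 and GABARAP families) closes around cargo that receptors such as Sqstm1 and Bnip3 hold to it, and fuses with the lysosome. FoxO transcription factors, when they are not held in the cytoplasm by insulin and Akt signaling, switch on genes of both routes. In the heart these routes turn over sarcomere proteins and mitochondria. The measurements here are of RNA, and neither protein breakdown nor autophagic flux was measured.

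Library totals ranged from 53169437 to 79404714 counts. Cardinal itself was present at 2.69 to 8.02 CPM (counts relative to the scaled library total) in the 8 Ctrl libraries, at 0.297 to 0.553 CPM in the 4 KO sham libraries and at 0.276 to 0.371 CPM in 3 of the KO TAC libraries. The library labelled KO TAC 4 held 4.55 CPM, within the range of the Ctrl libraries, so its Cardinal level goes against its label. The values of the 10 genes that rest on it, the counts of related genes and the marker lists are therefore also given without it. In the fit to all 16 libraries Cardinal was not called between KO sham and Ctrl sham, where 0% of genes were called. That 0% therefore does not show that the genotypes were alike. Each gene had a single spread estimate shared by the 4 groups, and that of Cardinal included KO TAC 4. How far the missed call of Cardinal applies to other genes was not tested. Without KO TAC 4, 1 gene was called in this comparison. The animal numbers of Ctrl TAC 2, 3 and 4 and KO TAC 4 start with 25 and those of Ctrl sham 4 and KO sham 1, 2 and 3 with 33. The labels do not say what the numbers mean. The heart label fits the cardiomyocyte markers, of which 7 of 7 were detected in every group. Levels below are CPM on library totals scaled by the TMM method, and even Foxo1, the least abundant of the 10 genes, had at least 1146 counts in every library.

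The stretches of DNA just before the start of transcription are shown for Trim63 and Trim54, a related pair of ligase genes, and for Bnip3. Of the 10 genes, Bnip3 alone was called higher after TAC, and only in KO hearts. Promoter entries of RefSeq (GRCm38.p6) were matched for 8 of the 10 genes, and no entry was matched for Fbxo32 and Map1lc3a. Each window holds the 250 bases before the RefSeq start, at chr4:134314870-134315119 on the plus strand for Trim63, chr5:31116362-31116611 on the plus strand for Trim54 and chr7:138909507-138909756 on the minus strand for Bnip3. The sequences read 5′ to 3′ along the gene, and the capitals mark the motif matches described after them.
Trim63: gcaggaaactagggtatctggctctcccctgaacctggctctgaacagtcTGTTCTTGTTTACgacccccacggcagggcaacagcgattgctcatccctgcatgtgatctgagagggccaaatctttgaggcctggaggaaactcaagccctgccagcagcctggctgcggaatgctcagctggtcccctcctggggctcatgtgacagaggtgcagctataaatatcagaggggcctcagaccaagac
Trim54: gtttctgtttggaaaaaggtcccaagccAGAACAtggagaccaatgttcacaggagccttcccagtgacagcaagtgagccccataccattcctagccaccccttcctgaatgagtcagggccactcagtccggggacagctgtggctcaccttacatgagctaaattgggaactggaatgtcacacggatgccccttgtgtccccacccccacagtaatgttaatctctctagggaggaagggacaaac
Bnip3: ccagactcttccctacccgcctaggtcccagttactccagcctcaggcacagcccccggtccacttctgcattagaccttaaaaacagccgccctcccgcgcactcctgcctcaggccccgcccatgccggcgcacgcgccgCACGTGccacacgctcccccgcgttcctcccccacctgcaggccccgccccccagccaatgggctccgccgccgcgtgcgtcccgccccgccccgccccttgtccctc

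The windows were searched on both strands for 4 motifs, the FoxO motif GTAAACA, the hexamer AGAACA (a single arm of the palindromic glucocorticoid receptor element, whose full palindrome was not searched), the CLEAR motif TCACGTGA of lysosomal genes and the E-box CACGTG. The E-box lies within the CLEAR motif, so that a CLEAR match is always also an E-box match. In the Trim63 window the FoxO motif lay on the reverse strand from -194 to -188 relative to the start, directly beside a reverse-strand AGAACA from -200 to -195. The Trim54 window held AGAACA from -222 to -217 and no FoxO motif. The Bnip3 window held the E-box from -108 to -103. The windows of Foxo1, Foxo3, Sqstm1, Map1lc3b and Gabarapl1 held none of the 4 motifs. Among 32817 RefSeq windows of the same length, 3.16% held the FoxO motif, 16.1% AGAACA, 0.786% the CLEAR motif and 6.02% the E-box. A match describes letters in the window and does not show that a factor bound there.

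Fbxo32 encodes the F-box protein MAFbx, the substrate-binding subunit of a ubiquitin ligase complex (chr15:58175879-58214932 in GRCm38, minus strand). Its level was 196, 202, 191 and 179 CPM in the 4 Ctrl sham libraries and 179, 144, 152 and 167 CPM in the 4 Ctrl TAC libraries. Every Ctrl TAC library lay below every Ctrl sham library, although Ctrl TAC 1 and Ctrl sham 4 were nearly equal. The log2 difference was -0.26 (SE 0.11) with an adjusted p of 0.102, so the gene was not called. Fitted to only these 8 Ctrl libraries, the gene was called, at -0.26 (adjusted p = 0.0285). In KO sham hearts it was 202, 219, 144 and 198 CPM and in KO TAC hearts 186, 154, 159 and 144 CPM. The KO groups overlapped because KO sham 3 was as low as the lowest KO TAC library. The KO difference was -0.25 (SE 0.11, adjusted p = 0.0836), and -0.20 (adjusted p = 0.210) without KO TAC 4. Without KO sham 3 the gene was called in both genotypes, at -0.26 (adjusted p = 0.0226) in Ctrl and -0.36 (adjusted p = 0.00260) in KO hearts, and without KO TAC 1 it was called in KO hearts (adjusted p = 0.0321). Its level after TAC was 160.4 ± 15.2 CPM in Ctrl and 161 ± 17.9 CPM in KO hearts (mean ± SD, n = 4 each), a log2 difference of 0.0018 with a 95% interval from -0.22 to 0.23, or 0.05 without KO TAC 4.

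Trim63 encodes MuRF1, a ligase that sits on the sarcomere and tags thick-filament proteins (chr4:134315120-134329629, plus strand). Ctrl sham libraries held 135, 160.1, 120.0 and 131 CPM and Ctrl TAC libraries 138, 122, 141 and 131 CPM. The 2 groups occupied the same range, with a log2 difference of -0.04 (SE 0.08, 95% interval -0.21 to 0.14). KO sham libraries held 138, 150.1, 127 and 131 CPM and KO TAC libraries 134, 114, 121 and 109.6 CPM. Here 3 of the 4 KO TAC libraries lay below every KO sham library, and the log2 difference was -0.19 (SE 0.08, adjusted p = 0.0875). It was -0.15 (adjusted p = 0.229) without KO TAC 4. Without KO TAC 1, the highest library of its group, the fall in KO hearts was called at -0.25 (adjusted p = 0.0350), and without Ctrl sham 2 at -0.19 (adjusted p = 0.0472). Between genotypes after TAC the log2 difference was -0.15 (SE 0.08, adjusted p = 0.334), and -0.11 (adjusted p = 0.544) without KO TAC 4.

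Trim54 encodes MuRF3, a relative of MuRF1 that binds microtubules and the sarcomere (chr5:31116712-31137630, plus strand). It had the most RNA per length of the 3 ligases. Ctrl sham libraries held 237, 210.0, 235 and 254 CPM and Ctrl TAC libraries 258, 267, 236 and 234 CPM, a log2 difference of 0.09 (SE 0.06, adjusted p = 0.378). KO sham libraries held 257, 222, 241 and 248 CPM and KO TAC libraries 231, 221, 215 and 206 CPM, a log2 difference of -0.15 (SE 0.06, adjusted p = 0.0832). After TAC, every KO library lay below every Ctrl library, and the log2 difference of -0.19 (SE 0.06) had an adjusted p of 0.121. The interaction, the TAC change in KO minus that in Ctrl hearts, was -0.24 (SE 0.09, unadjusted p = 0.0179, adjusted p = 0.340). Without KO TAC 4 the difference after TAC was -0.16 (adjusted p = 0.231), the interaction -0.21, and the change in KO hearts was -0.12 (adjusted p = 0.210). Without KO sham 2, the lowest library of its group, the fall in KO hearts was called at -0.19 (adjusted p = 0.0414). The highest Trim54 level of all 16 libraries was in Ctrl TAC 2, which also had the highest summed level of 7 skeletal muscle markers, at 5.74 CPM where the group medians were 1.73 to 2.11 CPM. The part of skeletal muscle RNA in the level of Trim54 was not tested.

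**Figure D1:**
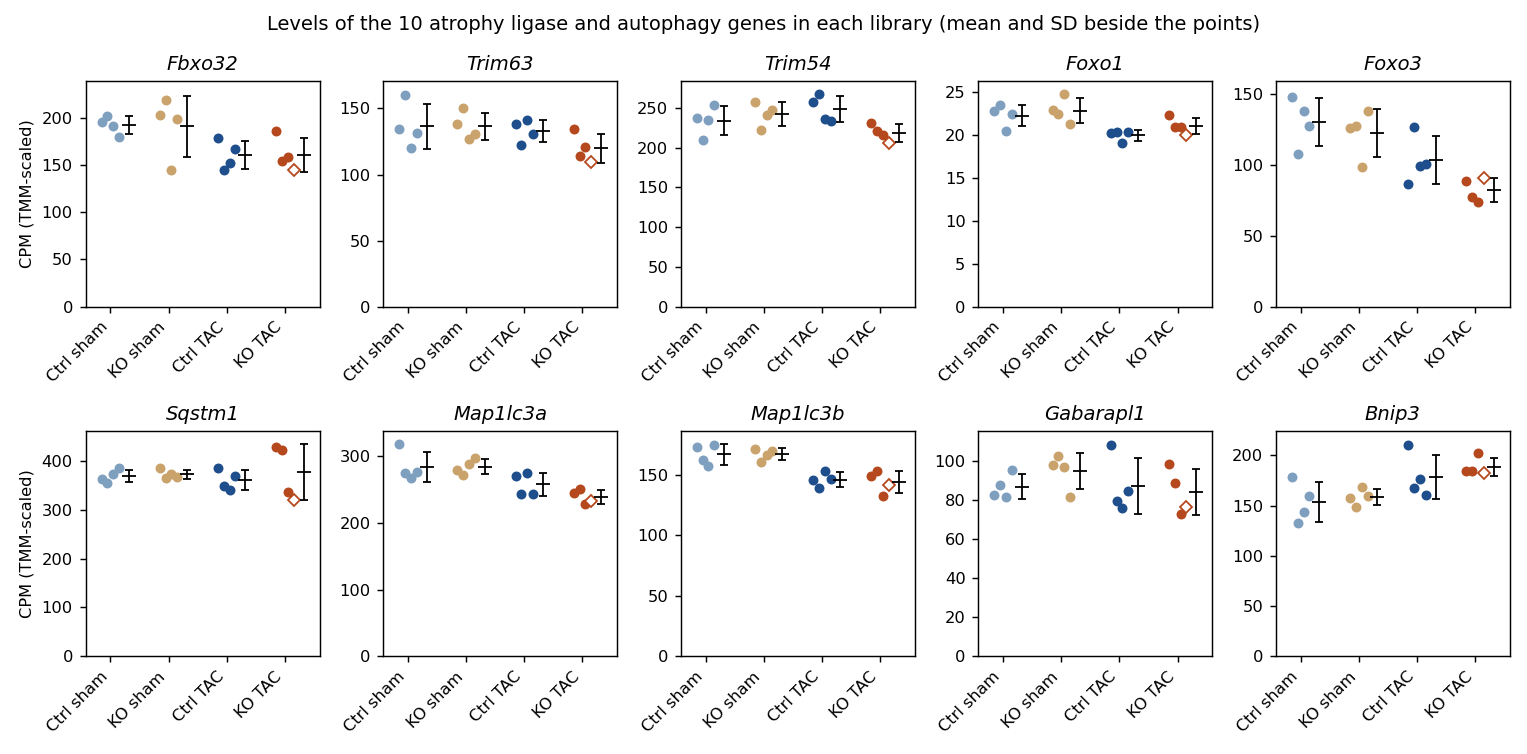
Level of each of the 10 genes in CPM (vertical axis, from 0) in each library of the sham and TAC groups of both genotypes. Points are libraries, the open diamond is KO TAC 4, and the bars beside the points give the mean and SD of 4 libraries. Map1lc3b is lower in every TAC library than in every sham library, Foxo3 has its lowest mean in KO TAC, and the group means of Sqstm1 lie between 361 and 377 CPM.

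The FoxO genes are described next. Foxo3 encodes a factor that activates Fbxo32 and autophagy genes in muscle (chr10:42181841-42276755, minus strand). Ctrl sham libraries held 148, 108, 138 and 128 CPM and Ctrl TAC libraries 86.5, 127, 99.6 and 101 CPM. Ctrl TAC 2 lay among the sham libraries, and the log2 difference of -0.34 (SE 0.13) was not called (adjusted p = 0.0750). KO sham libraries held 126, 127, 98.3 and 138 CPM and KO TAC libraries 88.8, 77.3, 73.7 and 90.9 CPM. All 4 KO TAC libraries lay below all 4 KO sham libraries, and Foxo3 fell by 0.57 on the log2 scale (SE 0.13, adjusted p = 0.00246), to 0.675 of its sham level. It fell by 0.62 (adjusted p = 0.00347) without KO TAC 4, and it stayed called whichever of the 16 libraries was omitted. The fall in Ctrl hearts was called without Ctrl TAC 2 (-0.45, adjusted p = 0.0160), without Ctrl sham 2 (-0.42, adjusted p = 0.0324), without KO sham 3 (-0.34, adjusted p = 0.0447) and by DESeq2 (-0.33, adjusted p = 0.0397). It was also called with a term for animal numbers starting with 25 (-0.54, adjusted p = 0.0330).

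The TAC responses of Foxo3 in the 2 genotypes were not distinguished by the test of their difference, an interaction of -0.23 (SE 0.18, adjusted p = 0.679), or -0.28 (SE 0.19) without KO TAC 4. With each of the 16 libraries omitted in turn it ran from -0.32 to -0.12, and it was smallest without Ctrl TAC 2 (-0.12) and without Ctrl sham 2 (-0.15). Between genotypes after TAC Foxo3 differed by -0.32 (SE 0.13, unadjusted p = 0.0218, adjusted p = 0.181), and by -0.37 (adjusted p = 0.168) without KO TAC 4. Without Ctrl TAC 2 this difference was -0.21 (adjusted p = 0.484). Foxo1, the other FoxO gene (chr3:52268336-52353221, plus strand), held 20.5 to 23.5 CPM in Ctrl sham and 19.0 to 20.3 CPM in Ctrl TAC libraries. These ranges do not overlap, but the log2 difference of -0.16 (SE 0.06) gave an adjusted p of 0.0680. It was called without Ctrl sham 3 (-0.19, adjusted p = 0.0314). In KO hearts Foxo1 held 21.3 to 24.8 CPM after sham surgery and 20.0 to 22.4 CPM after TAC, a log2 difference of -0.12 (SE 0.06, adjusted p = 0.133), or -0.09 (adjusted p = 0.294) without KO TAC 4 and -0.077 (adjusted p = 0.359) without KO sham 3.

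The ATG8 proteins coat the autophagosome membrane. Map1lc3b encodes LC3B, whose lipid-bound form is the usual marker of autophagosomes (chr8:121590361-121598760, plus strand). Ctrl sham libraries held 173, 163, 157 and 175 CPM and Ctrl TAC libraries 146, 139, 153 and 146 CPM. KO sham libraries held 172, 160.4, 166 and 170.0 CPM and KO TAC libraries 149, 153, 133 and 142 CPM. In both genotypes every TAC library lay below every sham library. Map1lc3b fell by 0.19 (SE 0.05, adjusted p = 0.0145) in Ctrl and by 0.21 (SE 0.05, adjusted p = 0.00415) in KO hearts on the log2 scale, to 0.876 and 0.863 of the sham level. The KO value was -0.20 (adjusted p = 0.0135) without KO TAC 4. Omitting any 1 of the 16 libraries kept both calls. The call in Ctrl hearts was lost with a term for animal numbers starting with 25 (-0.18, adjusted p = 0.111) and without both KO TAC 4 and Ctrl TAC 2 (-0.17, adjusted p = 0.0520), and the call in KO hearts with a term for numbers starting with 33 (-0.19, adjusted p = 0.0530).

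Map1lc3a encodes LC3A (chr2:155276297-155278073, plus strand). Ctrl sham libraries held 318, 275, 268 and 276 CPM and Ctrl TAC libraries 271, 243, 275 and 243 CPM. Ctrl TAC 1 and 3 lay within the sham range, and the log2 difference was -0.14 (SE 0.06, adjusted p = 0.113). It was -0.083 (adjusted p = 0.369) without Ctrl sham 1, the highest library of its group. KO sham libraries held 279.7, 271, 289 and 297 CPM and KO TAC libraries 245, 250.5, 228 and 233 CPM. The KO groups did not overlap, and Map1lc3a fell by 0.25 (SE 0.06, adjusted p = 0.00356), or by 0.23 (adjusted p = 0.0128) without KO TAC 4. This call was kept whichever of the 16 libraries was omitted. The interaction was -0.11 (SE 0.09, adjusted p = 0.683), -0.09 without KO TAC 4 and -0.17 without Ctrl sham 1, so the fall was not shown to be larger in KO than in Ctrl hearts.

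Gabarapl1, a GABARAP family gene (chr6:129533160-129542346, plus strand), showed no such separation. It held 81.8 to 95.6 CPM in Ctrl sham, 81.7 to 103 in KO sham, 76.1 to 108 in Ctrl TAC and 72.7 to 98.6 in KO TAC libraries. The log2 difference between Ctrl TAC and Ctrl sham was 0.0033 (95% interval -0.23 to 0.24), and between KO TAC and KO sham -0.17 (SE 0.11, 95% interval -0.41 to 0.06), or -0.13 without KO TAC 4 and -0.11 without KO TAC 3. These intervals include falls as large as those of the LC3 genes.

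Among the cargo receptors, Bnip3 marks mitochondria for removal and is known to be induced by hypoxia (chr7:138890836-138909519, minus strand). Ctrl sham libraries held 179, 132, 143 and 159 CPM and Ctrl TAC libraries 209.9, 167, 177 and 161 CPM. Ctrl sham 1 lay above 3 of the 4 Ctrl TAC libraries, and the log2 difference of 0.22 (SE 0.09) was not called (adjusted p = 0.0855). Without Ctrl sham 1 it was 0.30 and was called (adjusted p = 0.0194), as it was with the term for animal numbers starting with 25 (0.36, adjusted p = 0.0264), and without Ctrl TAC 1 it was 0.13 (adjusted p = 0.289). KO sham libraries held 157, 149, 168 and 159 CPM and KO TAC libraries 184, 184, 202 and 183 CPM. All 4 KO TAC libraries lay above all 4 KO sham libraries, and Bnip3 rose by 0.25 on the log2 scale (SE 0.09, adjusted p = 0.0336), to 1.19 times the sham level. Without KO TAC 4 it rose by 0.26 (adjusted p = 0.0465).

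The rise of Bnip3 in KO hearts was called in 10 of the 16 fits with 1 library omitted. It was lost without KO sham 1 (adjusted p = 0.0689), KO sham 2 (adjusted p = 0.0943), KO sham 4 (adjusted p = 0.0652), KO TAC 1 (adjusted p = 0.0512), KO TAC 2 (adjusted p = 0.0524) or KO TAC 3 (adjusted p = 0.1005), with log2 values of 0.21 to 0.28 over the 16 fits. It was also lost with a term for animal numbers starting with 33 (0.27, adjusted p = 0.104). The interaction was 0.03 (SE 0.12), with a 95% interval from -0.23 to 0.29, or 0.04 without KO TAC 4.

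Sqstm1 encodes p62, which binds ubiquitin and LC3 and is itself degraded by autophagy (chr11:50199366-50210827, minus strand). It held 355 to 384 CPM in Ctrl sham, 364 to 386 in KO sham and 339 to 386 in Ctrl TAC libraries. KO TAC libraries were spread more widely, at 429, 422, 336 and 319 CPM, with 2 above and 2 below every KO sham library. The log2 difference was -0.03 (95% interval -0.20 to 0.13) in Ctrl and 0.02 (95% interval -0.15 to 0.18) in KO hearts. Without KO TAC 4, the lowest of these libraries, the KO difference was 0.09 (SE 0.07).

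**Figure D2:**
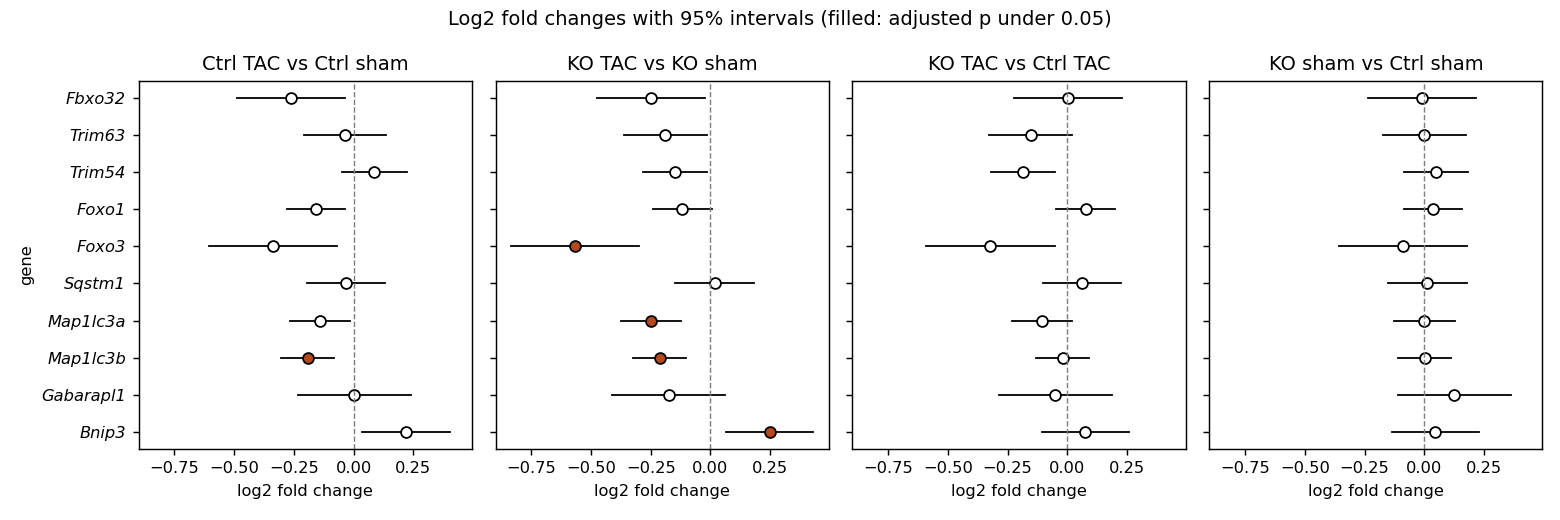
Log2 fold change of each of the 10 genes (horizontal axis) with its 95% interval in the 4 comparisons between 2 groups, 1 panel per comparison, from the fit to all 16 libraries. Filled points have an adjusted p under 0.05, which are Map1lc3b in both TAC comparisons and Foxo3, Map1lc3a and Bnip3 in KO hearts, and every interval in the comparison of KO sham with Ctrl sham includes 0.

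Between genotypes, none of the 10 genes was shown to differ after sham surgery, which does not show that their levels were equal. The log2 differences of KO sham from Ctrl sham ran from -0.09 for Foxo3 to 0.13 for Gabarapl1, and none of the 10 had an unadjusted p under 0.05. The intervals were narrowest for Map1lc3b, from -0.11 to 0.11, and widest for Foxo3, from -0.36 to 0.18. After TAC, 2 of the 10, Trim54 and Foxo3, had an unadjusted p under 0.05, and in the interaction 1, Trim54. DESeq2 likewise called 0 of the 10 in each of these 3 comparisons. The median log2 difference of the 10 genes was -0.09 in Ctrl TAC against Ctrl sham, -0.18 in KO TAC against KO sham and -0.04 in KO TAC against Ctrl TAC. The median over all genes tested was within 0.01 of 0 in each of these comparisons. Without KO TAC 4 the median of the 10 genes was -0.14 in KO hearts and -0.0091 between genotypes after TAC.

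Per kilobase of annotated exon, the 10 genes spanned a wide range in Ctrl sham hearts. Map1lc3a stood highest at 240.5 ± 19.3 CPM per kb, followed by Trim54 at 163 ± 12.6, Sqstm1 at 109.9 ± 3.85, Bnip3 at 67.7 ± 8.91, Trim63 at 48.0 ± 5.96, Gabarapl1 at 43.2 ± 3.14, Fbxo32 at 27.5 ± 1.37, Map1lc3b at 22.2 ± 1.14, Foxo3 at 17.2 ± 2.26 and Foxo1 at 2.57 ± 0.147 (mean ± SD, n = 4). Trim63 and Gabarapl1 were neighbours within their spread. The length used was the union of all annotated exons, 7517 bases for Map1lc3b and 1181 bases for Map1lc3a, so a gene that mainly uses a short transcript is understated. Exons of 7 of the 10 genes overlap a gene on the other strand, from 0.772% of exon bases for Map1lc3b (with Zcchc14) to 28.3% for Gabarapl1 (with 1700101I11Rik). The share was 26.6% for Trim54 (with Gm15469), 22.3% for Bnip3 (with Gm45507) and 17.3% for Sqstm1 (with Mrnip). Whether counting used strand is not given in the sources used here, so reads in these stretches cannot be assigned with certainty. The exons of Foxo3, Map1lc3a and Trim63 overlap no other gene.

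The wider pathways were read from 6 lists of 160 other genes, all of them tested. In Ctrl TAC against Ctrl sham 37 of the 160 were called, 19 higher and 18 lower, and in KO TAC against KO sham 57, 27 higher and 30 lower (53 without KO TAC 4, 28 higher and 25 lower). Every call of a related gene named below in KO TAC against KO sham was also made without KO TAC 4. The shares, 23.1% and 35.6%, lie near the 20.0% and 34.3% of all genes. By direction, 10.4% of all genes were called higher and 9.60% lower in Ctrl TAC hearts, and 17.8% higher and 16.5% lower in KO TAC hearts. The counts of the single lists below are descriptions beside these shares, and no list was tested as a set. In the list of FoxO family members, regulators and targets, 0 of 24 genes were higher in either genotype, and 7 were lower in Ctrl and 9 in KO hearts, with medians of -0.21 and -0.18. Without KO TAC 4, 7 were lower in KO hearts. Klf15, a transcription factor of cardiac metabolism, fell from 60.2 ± 10.7 to 41.0 ± 7.70 CPM in Ctrl hearts (-0.55, adjusted p = 0.0174) and from 58.9 (range 47.0 to 71.5) to 27.5 ± 2.20 CPM in KO hearts (-1.10, adjusted p = 5.57e-05). The Ctrl call of Klf15 held in 13 of the 16 fits with 1 library omitted, with an adjusted p of 0.0630 without Ctrl sham 1. Bcl2l11, which encodes the death-promoting protein Bim, fell by 0.81 in Ctrl (adjusted p = 0.00239) and by 0.77 in KO hearts (adjusted p = 0.00174).

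Among 20 other muscle ubiquitin ligases, 1 was higher and 5 lower in Ctrl TAC, and 1 higher and 7 lower (6 without KO TAC 4) in KO TAC hearts. The gene that rose was Trim72, a striated-muscle protein of membrane repair, by 0.69 in Ctrl (adjusted p = 1.46e-07) and by 0.39 in KO hearts (adjusted p = 1.82e-05). Fbxo31, an F-box subunit like Fbxo32, fell by 0.43 in Ctrl (adjusted p = 0.00210) and by 0.88 in KO hearts (adjusted p = 8.46e-07). Ubr2, a ligase that reads the first residue of its substrates, fell by 0.32 in Ctrl (adjusted p = 0.00151) and by 0.61 in KO hearts (adjusted p = 8.46e-07). These 3 were also the ligase genes called between genotypes after TAC. Exons of Trim72 overlap Gm15533 on the other strand in 27.6% of their bases.

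In the 31 genes of autophagosome initiation and conjugation, 2 were higher and 0 lower in Ctrl TAC, and 3 higher and 7 lower (5 without KO TAC 4) in KO TAC hearts. Atg101, a subunit of the complex that starts autophagy, rose by 0.46 in Ctrl (adjusted p = 0.000560) and 0.26 in KO hearts (adjusted p = 0.0210, or 0.0716 without KO sham 3). Wipi1, which binds the forming autophagosome membrane, rose by 0.29 (adjusted p = 0.00490) and 0.40 (adjusted p = 0.000175). Ulk1, the kinase that starts autophagy, fell by 0.21 in KO hearts (adjusted p = 0.00996), and Atg10, an enzyme of ATG12 conjugation, by 0.35 (adjusted p = 0.000924). The fall of Ulk1 was not called with a term for animal numbers starting with 33 (adjusted p = 0.165).

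Of 18 other receptors and mitophagy genes, 2 were higher and 2 lower in Ctrl TAC, and 1 higher and 2 lower in KO TAC hearts. Pink1, the kinase that marks damaged mitochondria, fell from 639.8 ± 47.6 to 409.9 ± 35.3 CPM in Ctrl (-0.64, adjusted p = 3.04e-06) and from 628 ± 36.4 to 363 ± 18.1 CPM in KO hearts (-0.79, adjusted p = 9.83e-08). Bnip3 was thus called higher in KO hearts, where Pink1 fell as it did in Ctrl hearts. In Ctrl hearts Bnip3 moved the same way without being called (0.22, adjusted p = 0.0855). This compares single genes and does not describe the mitophagy routes they belong to. Calcoco1, a receptor for the endoplasmic reticulum, fell by 0.35 in Ctrl (adjusted p = 0.00124) and 0.61 in KO hearts (adjusted p = 1.66e-06). Hspb8, a small heat shock protein of chaperone-assisted autophagy, rose by 0.53 (adjusted p = 1.02e-05) and 0.44 (adjusted p = 2.52e-05). Stbd1, a glycogen receptor, rose by 0.55 in Ctrl hearts (adjusted p = 0.0341), a call that held in 10 of the 16 fits and gave an adjusted p of 0.0976 without Ctrl sham 2.

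In the lists for the 2 end stations of breakdown, more of the called genes were higher than lower. Of 28 lysosome and TFEB genes, 4 were higher and 3 lower in Ctrl TAC hearts, 25% of the list, where 20.0% of all genes were called. In KO TAC hearts 13 were higher and 4 lower, 60.7% of the list, where 34.3% of all genes were called. The KO counts were the same without KO TAC 4. Ctsz, a lysosomal protease, rose from 18.9 ± 2.50 to 28.3 ± 4.21 CPM in Ctrl (0.58, adjusted p = 0.00128) and from 18.9 ± 2.21 to 34.0 ± 2.64 CPM in KO hearts (0.84, adjusted p = 1.70e-05). The cholesterol exporter Npc1 fell by 0.48 and 0.60 in Ctrl and KO hearts (adjusted p = 0.0126 and 0.00149). Mitf, a transcription factor related to TFEB, fell by 0.34 and 0.49 (adjusted p = 0.00523 and 0.000110).

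Of 39 proteasome genes, 10 were higher and 1 lower in Ctrl TAC, and 9 higher (10 without KO TAC 4) and 1 lower in KO TAC hearts, with medians of 0.09 and 0.07. With all 16 libraries, these are 28.2% and 25.6% of the list, where 20.0% and 34.3% of all genes were called. Psmb10, a catalytic subunit of the immunoproteasome, rose by 0.44 in Ctrl (adjusted p = 0.000228) and 0.60 in KO hearts (adjusted p = 4.37e-06). The core subunit gene Psma5 rose by 0.32 in Ctrl hearts (adjusted p = 0.000199) and the regulatory subunit gene Psmd8 by 0.37 in KO hearts (adjusted p = 5.52e-05). The gene that fell was Psme1, a subunit of a proteasome activator, by 0.31 and 0.50 (adjusted p = 0.00103 and 3.31e-06).

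**Figure D3:**
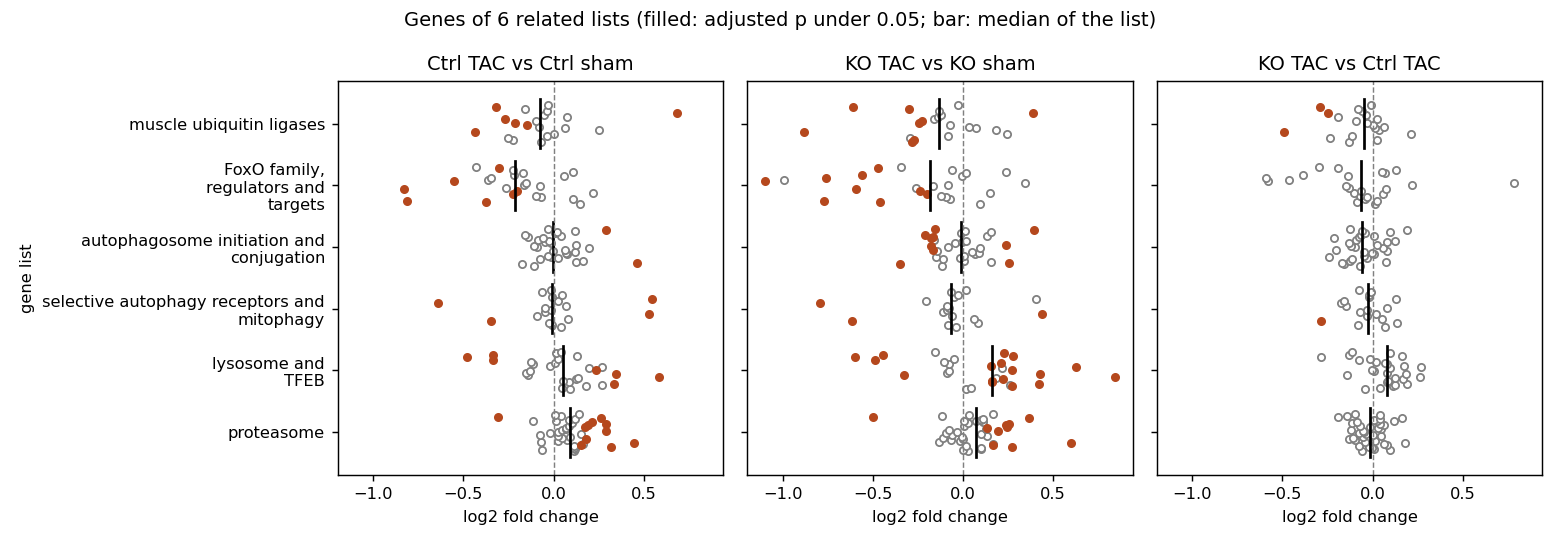
Log2 fold change (horizontal axis) of the 160 related genes in 6 lists (rows), 1 panel per comparison. Points are genes, filled where the adjusted p is under 0.05, and the vertical bar is the median of the list. No gene of the FoxO list is called higher in either TAC comparison, and 13 lysosome and TFEB genes are called higher in KO TAC against KO sham.

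Between genotypes after TAC, 4 of the 160 related genes were called, a share of 2.5% beside the 2.68% of all genes tested. All 4 were lower in KO hearts. Fbxo31 held 61.2 to 82.1 CPM in Ctrl TAC and 46.3 to 53.3 CPM in KO TAC libraries, and differed by -0.49 (SE 0.09, adjusted p = 0.0131). It was -0.51 (adjusted p = 0.0177) without KO TAC 4 and held its call whichever of the 16 libraries was omitted. Ubr2 differed by -0.29 (SE 0.06, adjusted p = 0.0216) and Calcoco1 by -0.29 (SE 0.07, adjusted p = 0.0329). Trim72, which lies outside the naming rule in this comparison and was chosen after its values were seen, differed by -0.25 (adjusted p = 0.0206), with 529.8 to 590.4 CPM in Ctrl TAC and 432 to 489.7 CPM in KO TAC libraries. Without KO TAC 4, Ubr2 (-0.31, adjusted p = 0.0320) and Trim72 (-0.26, adjusted p = 0.0317) were still called, Calcoco1 was not (-0.28, adjusted p = 0.0580), and Psmd8, also chosen after its values were seen, was called higher (0.21, adjusted p = 0.0466).

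Fbxo31 was the only 1 of these 4 genes still called when Ctrl TAC 2, KO TAC 2 or KO TAC 3 was left out. Leaving out Ctrl TAC 2 gave Ubr2 an adjusted p of 0.0845, Trim72 of 0.0808 and Calcoco1 of 0.118. Without KO TAC 2 it was 0.0716, 0.0664 and 0.0865 in the same order of genes, and without KO TAC 3 it was 0.0708, 0.0663 and 0.108. The call of Calcoco1 was also lost without Ctrl TAC 3 (adjusted p = 0.0764). With a term for animal numbers starting with 25, which 3 Ctrl TAC and 1 KO TAC library share, all 4 calls were lost, the adjusted p running from 0.104 for Fbxo31 to 0.183 for Calcoco1. None of the 160 genes was called in the interaction by edgeR. DESeq2 called 1, Trim72, at -0.30 (adjusted p = 0.0282, against 0.191 in edgeR).

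**Figure D4:**
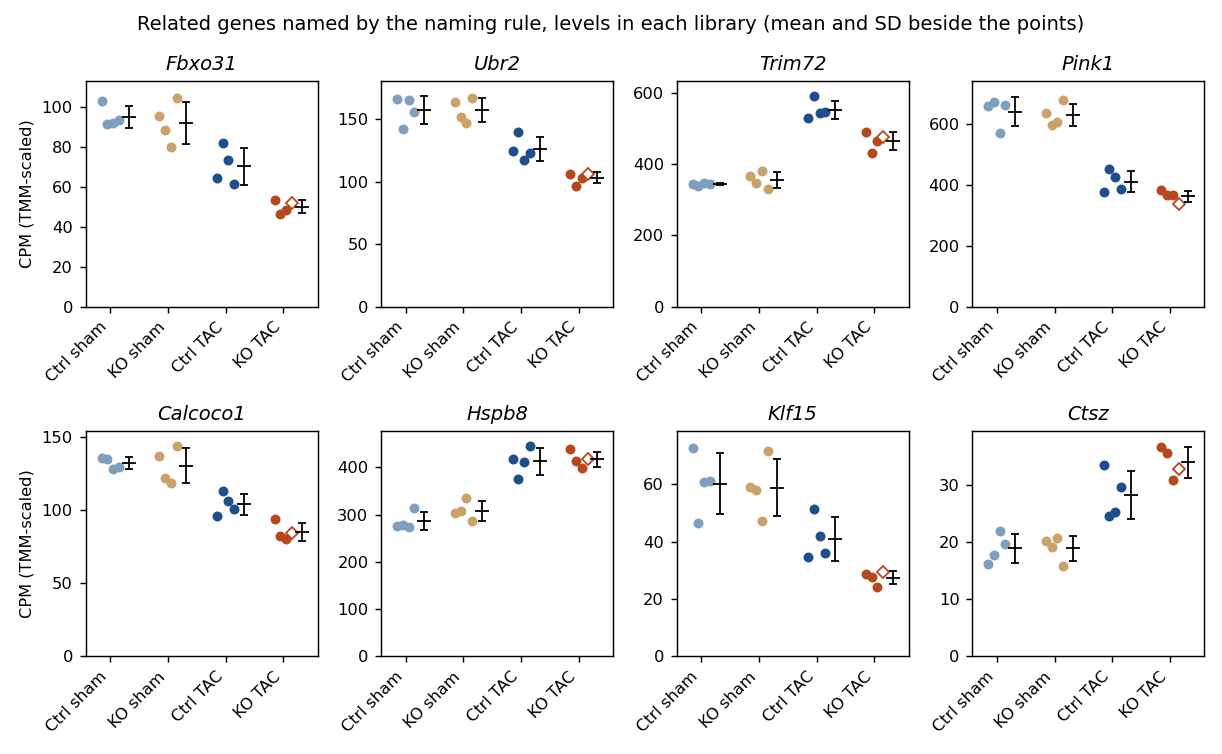
Levels in CPM (vertical axis, from 0) of 8 related genes in each library of the 4 groups. Points are libraries, the open diamond is KO TAC 4, and the bars give the mean and SD of 4 libraries. In Fbxo31, Ubr2, Trim72 and Calcoco1 every KO TAC library lies below every Ctrl TAC library.

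Markers of cell types moved with the TAC comparisons in which the genes above were called. The summed level of 7 cardiomyocyte markers was 49815 to 57711 CPM in Ctrl sham, 50904 to 56012 in KO sham, 43202 to 47303 in Ctrl TAC and 37563 to 39261 in KO TAC libraries. It was thus lower in TAC libraries and lowest in KO TAC, like the mean levels of Foxo3, Trim63, Map1lc3a and Map1lc3b. The means of Bnip3 and Sqstm1 were highest in KO TAC. Of the 7 cardiomyocyte markers 5 were called lower in Ctrl TAC and 6 in KO TAC hearts. Between genotypes after TAC 2 were called lower, Myh6 and Ryr2, and all these counts were the same without KO TAC 4. Actc1 was called in neither genotype (0.15 in Ctrl and 0.06 in KO hearts). The 7 fibroblast markers summed to 538 to 663 CPM in Ctrl sham, 576 to 610 in KO sham, 1074 to 1515 in Ctrl TAC and 1744 to 1904 in KO TAC libraries. Of these 7 fibroblast genes 4 were called higher in Ctrl TAC and 7 in KO TAC hearts, and 2 between genotypes after TAC (1 without KO TAC 4). The KO TAC libraries other than KO TAC 4 held 37563 to 39066 CPM of the cardiomyocyte and 1829 to 1904 CPM of the fibroblast markers, and 7 fibroblast and 5 macrophage markers were called higher in a fit without it. The 6 macrophage markers, of cells rich in lysosomes, summed to 147 to 199 CPM over the 8 sham libraries and 207 to 301 CPM over the 8 TAC libraries, and 3 and 5 of them were called higher in Ctrl and KO TAC hearts. The exception in KO TAC hearts was Cd163, at -0.27 (adjusted p = 0.155). Between genotypes after TAC 0 macrophage markers were called higher and 1 lower, Cd163 (-0.61, adjusted p = 0.0347). The part of these cell types in the changes of Map1lc3b, Map1lc3a, Foxo3 and Bnip3 and of the lysosome genes was not tested. In bulk tissue, fewer cells of a type and less RNA per cell cannot be told apart.

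Markers of other cell types were also summed, and some of them were called too. The 5 endothelial markers summed to 507 to 664 CPM over all 16 libraries and the 5 smooth muscle and pericyte markers to 597 to 716 CPM, and 1 endothelial and 2 smooth muscle and pericyte markers were called higher in KO TAC hearts, the same counts as without KO TAC 4. The 7 skeletal muscle markers summed to at most 5.74 CPM, the 4 lymphocyte markers to at most 1.81, the 4 adipocyte markers to at most 1.63, the 3 atrial markers to at most 3.27 and the 3 mesothelial markers to at most 11.4 CPM. The lymphocyte sum was 1.07 to 1.81 CPM in KO TAC libraries and at most 0.961 CPM in the other groups. Of the 3 lymphocyte markers tested, 2 were called higher in KO TAC hearts (1 without KO TAC 4), Cd79a by 0.99 (adjusted p = 0.0208) and Ms4a1 by 1.40 (adjusted p = 0.0377). No mesothelial marker was called in KO TAC hearts, against 2 without KO TAC 4. In Ctrl TAC hearts the skeletal muscle marker Tnnt3 (1.54, adjusted p = 0.00980), the atrial marker Myl4 (0.47, adjusted p = 0.0360) and the pericyte marker Pdgfrb (0.26, adjusted p = 0.0169) were called higher. The part of these cell types in the levels of the 10 genes was not tested. Of the defining markers, Lep was at 0 in Ctrl sham, Ctrl TAC and KO TAC, Sln in KO TAC and Myh1 in KO sham libraries. Transcripts of the mitochondrial genome took 26.8% to 28.8% of counts in sham and 21.9% to 27.0% in TAC libraries, and their part in the levels was not tested.

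**Figure D5:**
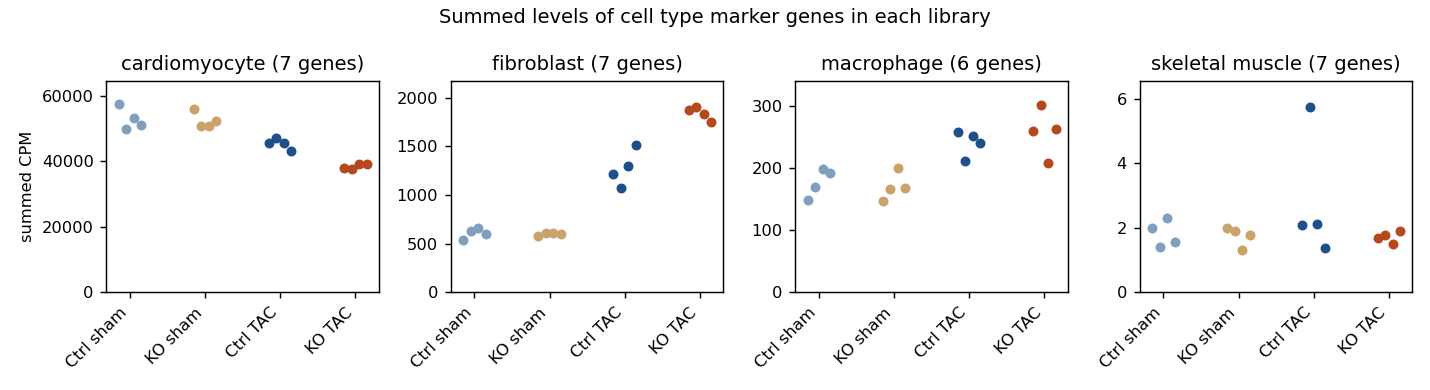
Summed level in CPM (vertical axes, from 0, each with its own scale) of cardiomyocyte, fibroblast, macrophage and skeletal muscle marker genes in each library of the 4 groups. Points are libraries. The cardiomyocyte sum is lowest and the fibroblast sum highest in the 4 KO TAC libraries, and 1 Ctrl TAC library stands apart in the skeletal muscle sum at 5.74 CPM.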

How the data were processed

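Poly(A) RNA from 16 mouse hearts was sequenced as paired 150-base reads. The authors deposited raw read counts per Ensembl gene, whole numbers without normalization, 1 column per mouse. The submitters' processing notes name cutadapt 2.3, FastQC, HISAT2 2.1.0, edgeR 3.26.1 and GRCm38. The counting program, annotation and use of strand are not given in the sources used here. GENCODE M21 (GRCm38) gave symbols for 55227 of 55487 identifiers (99.5%).

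Counts were filtered with filterByExpr, scaled by TMM and fitted with a mean per group over all 16 libraries (edgeR 4.0.16, R 4.3.3, glmQLFit with the robust option, glmQLFTest, 5 contrasts). The SE is the absolute log2 fold change divided by the square root of F. P-values were adjusted over 18275 genes. Related genes were named by a rule: in each list and each TAC contrast, the 2 largest rises and 2 largest falls among called genes averaging at least 2 in log2 CPM. Some genes that the naming rules select are not reported here. Patterns alike were ranked by root mean square difference of log2 CPM (prior count 2). The members, lists and rules were chosen with earlier results of these data known. Replicates are separate mice by their animal numbers. The script was tested on simulated data. Alternatives were RLE size factors, other filters, an adjusted p under 0.01, terms for animal numbers, 8-library fits, left-out libraries and DESeq2 1.42.0.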

Additional observations from a re-analysis of the deposited data

Results flagged for a closer look

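Of 40 groups of 4 libraries (10 genes in 4 groups), 3 held a library whose gap to its nearest neighbour exceeded the 95% critical value of Dixon's test, a share of the group's range, where chance flags about 1 in 20 groups. Foxo1 was lowest in Ctrl TAC 3, at 19.0 CPM against 20.3 CPM in the other libraries of its group. Map1lc3a was highest in Ctrl sham 1, at 318 CPM against 268 to 276 CPM in the others. Bnip3 was highest in KO TAC 3, at 202 CPM against 183 to 184 CPM in the others.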

How the results depend on the processing

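The count of the 10 genes called in Ctrl TAC against Ctrl sham, 1 as reported, was 0 at an adjusted p under 0.01 and 2 with a term for animal numbers starting with 25, in the fit to the 8 libraries compared and by DESeq2. It ran from 1 to 3 when each library was left out in turn. The count in KO TAC against KO sham, 4 as reported, was 2 with a term for animal numbers starting with 33 and ran from 3 to 5 with a library left out. Between genotypes after TAC the count of related genes called, 4 as reported, was 0 at an adjusted p under 0.01, 0 with the term for numbers starting with 25, 2 in the fit to 8 libraries, 1 without KO TAC 4 and Ctrl TAC 2, and 15 by DESeq2. It ran from 1 (without Ctrl TAC 2, KO TAC 2 or KO TAC 3) to 7 (without Ctrl TAC 4). In the interaction DESeq2 called 1 related gene. The share of all genes called in each of these fits is not reported here, so the shifts are not read as particular to these genes. The cause of these shifts was not tested, beyond the smaller number of libraries in some fits. No paired analysis was possible because the labels give no replicate numbers that groups share, and the animal numbers differ between groups.

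Values that changed sign had not been called in the reported fit. With the term for numbers starting with 25 these were Trim63 (0.054) and Sqstm1 (0.13) in Ctrl TAC against Ctrl sham, Fbxo32 (-0.10), Sqstm1 (-0.054) and Bnip3 (-0.013) in KO TAC against Ctrl TAC, and Fbxo32 (-0.093), Sqstm1 (-0.067) and Bnip3 (-0.059) in the interaction. With the term for numbers starting with 33 they were Gabarapl1 (0.0056) in KO TAC against KO sham, Fbxo32 (0.042), Foxo1 (-0.00028), Sqstm1 (-0.014) and Map1lc3b (-0.013) in KO sham against Ctrl sham, and Fbxo32 (-0.041) in the interaction. In KO sham against Ctrl sham Map1lc3a and Map1lc3b were -0.0046 and -0.0035 with a filter of 1 count in any library and -0.0020 and -0.0012 by DESeq2. Fbxo32 in KO TAC against Ctrl TAC was -0.0011 in the fit to 8 libraries, and Trim63 in Ctrl TAC against Ctrl sham 0.0029 without KO TAC 4 and Ctrl TAC 2.

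With each library left out in turn, the values that changed sign covered these ranges. In Ctrl TAC against Ctrl sham, Gabarapl1 ran from -0.12 to 0.062 and Trim63 from -0.093 to 0.050. In KO TAC against KO sham, Sqstm1 ran from -0.051 to 0.089. In KO TAC against Ctrl TAC, Fbxo32 ran from -0.076 to 0.057, Gabarapl1 from -0.14 to 0.070, Map1lc3b from -0.049 to 0.020 and Sqstm1 from -0.0073 to 0.13. In KO sham against Ctrl sham, Bnip3 ran from -0.018 to 0.13, Fbxo32 from -0.082 to 0.10, Foxo1 from -0.0034 to 0.068, Foxo3 from -0.17 to 0.0011, Map1lc3a from -0.027 to 0.059, Map1lc3b from -0.027 to 0.024, Sqstm1 from -0.0049 to 0.034 and Trim63 from -0.058 to 0.085. In the interaction, Bnip3 ran from -0.056 to 0.12, Fbxo32 from -0.10 to 0.084, Map1lc3b from -0.050 to 0.019 and Sqstm1 from -0.020 to 0.12.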

Other observations

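The genes whose pattern over the 16 libraries was most like that of 4 of the genes were ranked by the root mean square difference of log2 CPM, each gene centred on its Ctrl sham mean, among 10212 genes. A gene was picked by its values in these same libraries, so a similar TAC change is built into the choice. For Fbxo32 these included Slc25a13 (0.10) and Rapgef4 (0.11), where Fbxo32 itself varied by 0.24 around its Ctrl sham mean. Slc25a13, a mitochondrial aspartate-glutamate carrier, was called lower in both genotypes after TAC, by 0.27 (adjusted p = 0.00384) in Ctrl and 0.18 (adjusted p = 0.0331) in KO hearts. The KO value was -0.14 (adjusted p = 0.116) without KO TAC 4 and was not called. Rapgef4 was called lower in Ctrl (-0.22, adjusted p = 0.0234) but not in KO hearts (-0.05, adjusted p = 0.571). For Bnip3 they were Aars (0.09), Gapdh (0.10) and Ddx21 (0.10), where Bnip3 itself varied by 0.22. Gapdh, a glycolytic enzyme often used as a reference gene in heart samples, rose by 0.20 in Ctrl (adjusted p = 0.0420) and by 0.28 in KO hearts (adjusted p = 0.00327) after TAC. Aars, an aminoacyl-tRNA synthetase, rose by 0.24 (adjusted p = 0.0120) and 0.26 (adjusted p = 0.00429). Both were still called in KO hearts without KO TAC 4, at 0.31 (adjusted p = 0.00298) for Gapdh and 0.29 (adjusted p = 0.00403) for Aars. Ddx21 was not called in Ctrl (0.15, adjusted p = 0.113) and was called in KO hearts (0.19, adjusted p = 0.0249).

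For Trim63 the nearest genes were Epm2a (0.08), Ubald2 (0.09) and Tut1 (0.10), and Trim63 itself varied by 0.15. For Sqstm1 they were Mettl22 (0.07), Rnaset2a (0.07) and Lyar (0.08), and Sqstm1 itself varied by 0.11.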
